A study of Mus musculus with 13 samples.

Results

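The genes described here are 35 genes of glycolysis and of the response to low oxygen, out of 24054 genes counted in mouse small intestinal organoids and sorted intestinal stem cells (ISCs). They were taken by symbol from a list whose rule uses no measured value, although the list was drawn up with earlier results of these data known, and all 35 symbols are in the count tables. The list holds 2 glucose transporters, 15 enzymes of glycolysis, 3 regulators of glycolytic flux, 4 genes of lactate handling, 3 of oxygen sensing and 8 genes known to be induced by hypoxia. Of the 35, 33 passed the filter on low counts in every fit. Slc2a3, a high-affinity glucose transporter, lay between 0 and 0.954 CPM (gene counts scaled to a common depth) in the 13 libraries. Eno1, the enolase found in most tissues, lay between 0 and 0.985 CPM in these files, and the annotation holds a near-identical copy of it, so its level is not read here.

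The study asked what loss of Apc does in different intestinal cells and settings. Apc holds together the machinery that destroys beta-catenin, and cells without it signal through Wnt constantly. Bulk RNA-seq covered 13 libraries in 6 groups, all from adult mice given 2 doses of 1 mg tamoxifen, which switches on CreERT2, a Cre recombinase fused to a modified oestrogen receptor. Sec-Cre organoids (n = 2) carried Atoh1CreERT2;Apcfl/fl;Rosa26tdTomato, in which Cre is driven in the secretory lineage. ISC-Cre organoids (n = 2) carried Lgr5eGFP-CreERT2;Apcfl/fl;Rosa26tdTomato, in which Cre is driven in stem cells. For WT organoids (n = 2) the genotype is given only as WT. All organoids are labelled 10 days and were grown from ileal crypts as whole, unsorted cultures. ISC-Cre duodenal ISCs (n = 3) had the same alleles as the ISC-Cre organoids and were sorted at 14 days. Sec-Cre ileal ISCs (n = 2) carried Atoh1CreERT2;Apcfl/fl;Lgr5DTR-GFP;Rosa26tdTomato and were sorted at 21 days. WT ileal ISCs (n = 2), also from day 21, carried Apcfl/fl;Lgr5DTR-GFP;Rosa26tdTomato, that is floxed Apc and the reporters without a Cre. The duodenal group differs from the ileal groups in gut region, day, dissociation and library type as well as in the driver, and these cannot be told apart.

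Glycolysis splits glucose into pyruvate, which is burned in mitochondria or reduced to lactate and exported. When oxygen is scarce, the prolyl hydroxylases encoded by Egln1 and Egln3 no longer mark the transcription factor Hif1a for destruction, and Hif1a raises glucose uptake, most glycolytic enzymes, lactate export and its own inhibitors Egln1 and Egln3. In the intestine oxygen falls from the crypt base towards the lumen, and glycolytic flux is commonly raised in Wnt-driven tumour cells.

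The core letters to which Hif1a is known to bind, ACGTG or GCGTG, were searched in RefSeq promoter windows (build GRCm38.p6, 250 bases before to 50 bases after a transcript start) on both strands, where they read CACGT and CACGC on the other strand. CACGTG reads ACGTG on both strands and is counted on each. ACGTG occurred in a window of 24 of the 33 members with an entry (72.7%), against 21.8% of 27025 genes. Either core occurred for 30 of 33 members (90.9%), against 46.7% of genes. The list includes genes chosen as known Hif1a targets, so the share describes the list, and a match is not a binding site. The windows below belong to the hypoxia-induced and oxygen-sensing members with the smallest adjusted p in an organoid comparison. They are shown by that rule, which does not rank the genes by size of change, and the capitals mark either core on either strand. Ndrg1, which also met this rule, is named only. Egln1 lies at chr8:124949205-124949504 (minus strand), Ero1l at chr14:45318523-45318822 (minus), Egln3 at chr12:54203825-54204124 (minus), Ddit4 at chr10:59951721-59952020 (minus) and Hif1a at chr12:73907617-73907916 (plus).
Egln1: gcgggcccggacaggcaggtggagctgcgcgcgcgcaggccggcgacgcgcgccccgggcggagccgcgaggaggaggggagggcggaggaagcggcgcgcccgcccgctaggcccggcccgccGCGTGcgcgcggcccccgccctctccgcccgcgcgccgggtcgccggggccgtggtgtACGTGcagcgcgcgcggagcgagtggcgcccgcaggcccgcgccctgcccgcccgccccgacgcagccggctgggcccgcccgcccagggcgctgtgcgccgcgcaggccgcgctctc
Ero1l: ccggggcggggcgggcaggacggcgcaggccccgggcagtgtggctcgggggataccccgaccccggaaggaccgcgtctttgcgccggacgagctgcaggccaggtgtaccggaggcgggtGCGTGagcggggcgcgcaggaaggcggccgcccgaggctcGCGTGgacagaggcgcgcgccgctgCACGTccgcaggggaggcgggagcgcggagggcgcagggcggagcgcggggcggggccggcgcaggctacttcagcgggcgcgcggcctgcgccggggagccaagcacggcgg
Egln3: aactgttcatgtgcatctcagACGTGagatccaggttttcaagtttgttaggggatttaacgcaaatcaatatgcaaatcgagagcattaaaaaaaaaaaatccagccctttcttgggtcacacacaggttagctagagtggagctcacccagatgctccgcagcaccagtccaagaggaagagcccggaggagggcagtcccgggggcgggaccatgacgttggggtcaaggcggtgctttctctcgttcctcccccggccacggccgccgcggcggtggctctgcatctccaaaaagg
Ddit4: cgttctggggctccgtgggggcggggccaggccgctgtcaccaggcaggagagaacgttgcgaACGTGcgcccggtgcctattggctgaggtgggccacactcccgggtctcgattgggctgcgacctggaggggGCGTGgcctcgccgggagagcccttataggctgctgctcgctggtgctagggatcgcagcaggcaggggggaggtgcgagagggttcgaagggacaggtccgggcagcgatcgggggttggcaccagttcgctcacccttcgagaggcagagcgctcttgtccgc
Hif1a: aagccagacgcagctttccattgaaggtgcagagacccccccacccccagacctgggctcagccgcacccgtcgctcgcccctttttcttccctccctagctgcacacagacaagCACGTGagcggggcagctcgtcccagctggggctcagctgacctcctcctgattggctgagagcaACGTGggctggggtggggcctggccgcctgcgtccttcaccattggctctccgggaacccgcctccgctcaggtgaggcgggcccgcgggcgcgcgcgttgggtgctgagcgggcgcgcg
Egln1 and Ddit4 held 1 ACGTG and 1 GCGTG each, and Egln3 held 1 ACGTG. Ero1l held 1 ACGTG and 2 GCGTG. Hif1a held ACGTG at 3 counted places, through 1 CACGTG and a further ACGTG.

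Total gene counts were 20941447 to 22182702 in Sec-Cre organoids, 17869369 to 20915624 in ISC-Cre organoids and 13631423 to 21306261 in WT organoids. They were 21580486 to 27336750 in duodenal ISCs, 11524335 and 45516228 in Sec-Cre ileal ISCs and 15573041 to 18609373 in WT ileal ISCs. Sec-Cre ileal ISC replicate 1 stands apart, with 57.0% unmapped reads and 28.0% of its gene counts in 8 Paneth cell genes, against 0.921% of gene counts in replicate 2 and 1.98% to 2.35% in WT ileal ISCs. Stem cell markers (5 genes) summed to 647 and 1620.5 CPM in Sec-Cre ileal ISCs, against 3730 and 4206 CPM in WT ileal ISCs. Axin2, a Wnt target among them, had 79.0 and 37.8 CPM in Sec-Cre ileal ISCs, against 330 and 285 CPM in WT ileal ISCs, while it had 679 to 822 CPM in the other Apc-null groups and 222 and 393 CPM in WT organoids. Most of the gap in the stem cell sum was Olfm4, with 302 and 1258 CPM in Sec-Cre and 3005 and 3607 CPM in WT ileal ISCs. Duodenal Apc-null ISCs had a low stem cell sum too, at 1331 to 1549 CPM. Ascl2 had 12.6 and 54.6 CPM in Sec-Cre ileal ISCs, on either side of the 37.7 CPM of both WT ileal libraries. The low Axin2 of the libraries labelled Sec-Cre ileal ISCs thus goes against that label, while the stem cell sum is less clear. The directions drawn from these libraries below rest on the label alone. In the same libraries 9 enterocyte markers summed to 21818 to 40404 CPM in Sec-Cre ileal ISCs, against 1329 to 1431 CPM in WT ileal ISCs. In Apc-null organoids the enterocyte sum was 419.8 to 477.4 CPM (Sec-Cre) and 337.8 to 349.6 CPM (ISC-Cre), against 2615 to 3723 CPM in WT organoids. Goblet cell markers (7 genes) summed to 454 to 485 CPM and 433 to 668 CPM, against 4156 to 4467 CPM, in the same order. Enteroendocrine markers (8 genes) summed to 13.2 to 26.1 CPM and 14.5 to 47.9 CPM, against 568 to 624 CPM, and tuft cell markers (6 genes) to 5.53 to 11.6 CPM and 5.28 to 9.44 CPM, against 87.0 to 92.7 CPM. A stromal list of 7 genes summed to 276 to 595 CPM in Sec-Cre organoids and 529.5 to 710.5 CPM in ISC-Cre organoids, against 13.6 to 15.7 CPM in WT organoids, but nearly all of the Apc-null sum was Vim (274 to 705 CPM), Col1a1 was at most 1.39 CPM and Pdgfrb was lower in Apc-null than in WT organoids. The part of these markers in the results below was not tested. In bulk libraries, fewer cells that express a gene and less RNA per cell cannot be told apart. Apc itself had 185 to 204 CPM in organoids of the Sec-Cre driver, 189 to 243 CPM in those of the ISC-Cre driver and 139 to 156 CPM in WT organoids. It had 165 to 453 CPM in duodenal ISCs and 48.2 to 107 CPM in Sec-Cre ileal ISCs, against 114 to 124 CPM in WT ileal ISCs. These counts cover the whole gene and do not check the deletion.

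In Apc-null organoids of either driver, most of the hypoxia-induced genes, the oxygen-sensing hydroxylases and several enzymes of glycolysis fell below their WT level, while Hif1a and Ldhb rose. In Sec-Cre organoids 17 of 33 members fell and 2 rose by edgeR's quasi-likelihood test (adjusted p under 0.05), where 16.3% of all 14208 genes tested fell, 16.7% rose and 33.0% did either. In ISC-Cre organoids 22 of 33 fell and 3 rose, where 18.5% of all genes fell, 19.3% rose and 37.8% did either. The median log2 fold change of the 33 members was -0.97 in Sec-Cre and -1.26 in ISC-Cre organoids, beside 0.05 and 0.03 over all genes tested. By library, 24 of 33 members were lower in both Sec-Cre libraries than in both WT libraries and 3 were higher, where 30.3% of all genes were lower in this way and 41.1% higher. For ISC-Cre organoids the counts were 25 and 3, where 31.3% of all genes were lower and 37.2% higher. Both comparisons use the same WT libraries, so their values stand side by side and are not independent. The Sec-Cre count rests on few libraries: 11 members fell without Sec-Cre replicate 1, 7 without Sec-Cre replicate 2 and 9 without WT replicate 1, and 1 member rose without either Sec-Cre library. In ISC-Cre organoids 14 fell without ISC-Cre replicate 1.

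**Figure D1:**
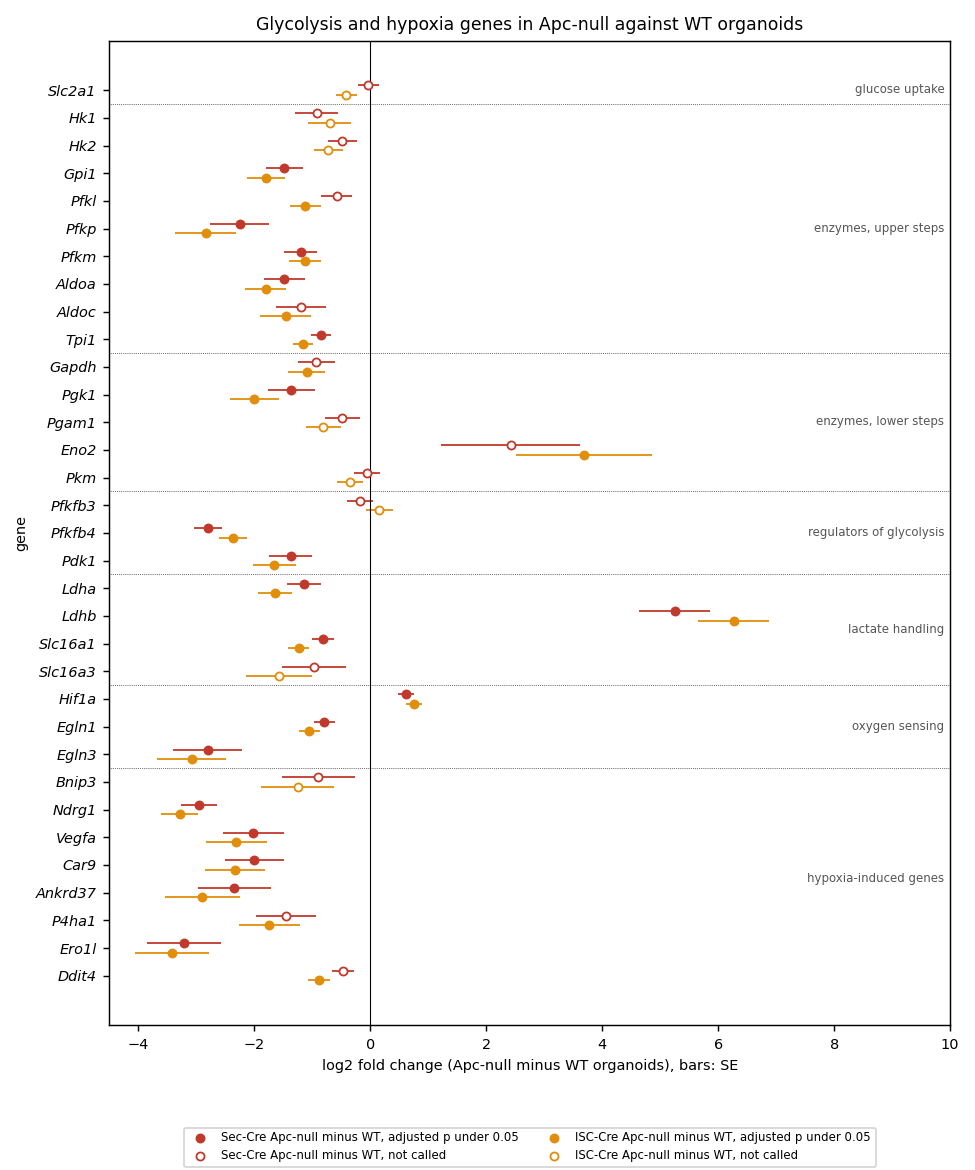
Log2 fold change (x axis) of the 33 tested members (rows, grouped by role) in Sec-Cre and ISC-Cre Apc-null organoids against WT organoids. Points are edgeR estimates from 2 libraries a group, bars are 1 SE, filled points have an adjusted p under 0.05, and most rows lie left of 0 while Ldhb and Hif1a lie right of it.

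Among the 8 hypoxia-induced genes, 5 fell in Sec-Cre organoids and 7 in ISC-Cre organoids, where 16.3% and 18.5% of all genes tested fell. The fold change of all 8 was negative in both comparisons. In Sec-Cre organoids it was negative for 6689 of all 14208 genes. Ndrg1, which encodes a stress-responsive protein widely used as a hypoxia marker, had 85.9 and 118 CPM in the Sec-Cre pair, 67.6 and 92.2 CPM in the ISC-Cre pair and 978 and 544 CPM in the WT pair. Neither WT library came near the Apc-null range. Its log2 fold change was -2.95 ± 0.32 (SE) in Sec-Cre organoids (adjusted p = 0.000581) and -3.29 ± 0.32 in ISC-Cre organoids (adjusted p = 0.000331). Ero1l, the oxidase that forms disulphide bonds in the endoplasmic reticulum, had 83.7 and 93.0 CPM in the Sec-Cre pair, 46.3 and 105 CPM in the ISC-Cre pair and 1252 and 324 CPM in the WT pair. The WT libraries differed strongly from each other, yet both lay above all Apc-null libraries. Its log2 fold change was -3.21 ± 0.64 in Sec-Cre (adjusted p = 0.00789) and -3.42 ± 0.64 in ISC-Cre organoids (adjusted p = 0.00543, but 0.0536 without ISC-Cre replicate 1).

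Car9, the membrane carbonic anhydrase that exports acid, had 58.0 and 38.8 CPM in the Sec-Cre pair, 18.4 and 58.1 CPM in the ISC-Cre pair and 234 and 138 CPM in the WT pair, and fell by 2.00 ± 0.50 (adjusted p = 0.0206) and by 2.33 ± 0.51 (adjusted p = 0.0104) on the log2 scale. Vegfa, the growth factor for blood vessels, had 71.0 and 52.4 CPM, 23.3 and 77.1 CPM, and 310.1 and 171 CPM in the same order of groups. The highest Apc-null library was below the lowest WT library for both genes. Vegfa fell by 2.02 ± 0.52 in Sec-Cre (adjusted p = 0.0224) and by 2.31 ± 0.53 in ISC-Cre organoids (adjusted p = 0.0122). Leaving out Sec-Cre replicate 2 took the Sec-Cre calls of Car9 (adjusted p = 0.0902) and Vegfa (0.0939), and leaving out WT replicate 1 did so as well (0.0794 and 0.0876). Ankrd37, an ankyrin-repeat gene with a promoter known to respond to Hif1a, fell by 2.35 ± 0.63 (Sec-Cre) and 2.90 ± 0.65 (ISC-Cre); 21.4% of its words are shared with other genes. P4ha1, a collagen prolyl hydroxylase, and Ddit4, an inhibitor of mTORC1, passed in ISC-Cre organoids (log2 fold changes -1.74 ± 0.52 and -0.89 ± 0.19), while their Sec-Cre values of -1.46 and -0.47 had adjusted p of 0.0665 and 0.102. Bnip3, which marks mitochondria for autophagy, had 77.1 and 62.6 CPM in the Sec-Cre pair, 19.6 and 89.0 CPM in the ISC-Cre pair and 173 and 77.5 CPM in the WT pair. Both Sec-Cre libraries lay just below the lower WT library, the ISC-Cre libraries spanned it, and its adjusted p was 0.312 in Sec-Cre and 0.162 in ISC-Cre organoids.

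The 3 oxygen-sensing genes all changed in both organoid comparisons, but not in the same direction. Hif1a, the oxygen-regulated transcription factor, had 159 and 146 CPM in the Sec-Cre pair, 152 and 180.0 CPM in the ISC-Cre pair and 104 and 87.97 CPM in the WT pair. All Apc-null libraries were above both WT libraries. Its mRNA rose by a log2 fold change of 0.61 ± 0.14 in Sec-Cre (adjusted p = 0.0155) and 0.76 ± 0.14 in ISC-Cre organoids (adjusted p = 0.00577). Leaving out Sec-Cre replicate 1 or 2 took the Sec-Cre call (adjusted p = 0.111 and 0.0556), and fitting all 13 libraries at once took that call (0.408) and the ISC-Cre call (0.290). Egln3, a hydroxylase that Hif1a induces, had 49.5 and 31.6 CPM in the Sec-Cre pair, 18.8 and 47.8 CPM in the ISC-Cre pair and 408 and 138 CPM in the WT pair. The Apc-null libraries did not reach the lower WT library. Egln3 fell by 2.81 ± 0.59 in Sec-Cre (adjusted p = 0.0103) and by 3.08 ± 0.60 in ISC-Cre organoids (adjusted p = 0.00639, but 0.0529 without ISC-Cre replicate 1). Egln1, the main oxygen sensor of most cells, had 79.0 and 76.8 CPM, 57.3 and 71.5 CPM, and 150.3 and 110.4 CPM in these groups. Its fall was smaller, at 0.79 ± 0.18 in Sec-Cre (adjusted p = 0.0139) and 1.05 ± 0.18 in ISC-Cre organoids (adjusted p = 0.00375). For Egln1 the Sec-Cre call needed both Sec-Cre libraries (0.0637 without replicate 1 and 0.0762 without replicate 2).

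Slc2a1, the main glucose transporter of dividing cells and a textbook Hif1a target, did not follow the hypoxia-induced genes. It had 111 and 106 CPM in the Sec-Cre pair, 70.2 and 94.8 CPM in the ISC-Cre pair and 122 and 92.7 CPM in the WT pair, with groups that overlapped in both comparisons. Its log2 fold change was -0.03 ± 0.19 in Sec-Cre (adjusted p = 0.913) and -0.41 ± 0.19 in ISC-Cre organoids (adjusted p = 0.121). Hk2, the inducible hexokinase that traps glucose, had 104 and 88.5 CPM, 66.0 and 95.6 CPM, and 159 and 101 CPM, with a Sec-Cre adjusted p of 0.175 and an ISC-Cre adjusted p of 0.0561. Pkm, the pyruvate kinase of dividing cells, had 1991 and 1719 CPM in the Sec-Cre pair, 1257 and 1740 CPM in the ISC-Cre pair and 2199 and 1515 CPM in the WT pair. Its log2 fold change was -0.05 ± 0.22 (adjusted p = 0.873) in Sec-Cre and -0.35 ± 0.22 (adjusted p = 0.257) in ISC-Cre organoids. So none of Slc2a1, Hk2 and Pkm showed a called change by edgeR, which does not show that they were equal.

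**Figure D2:**
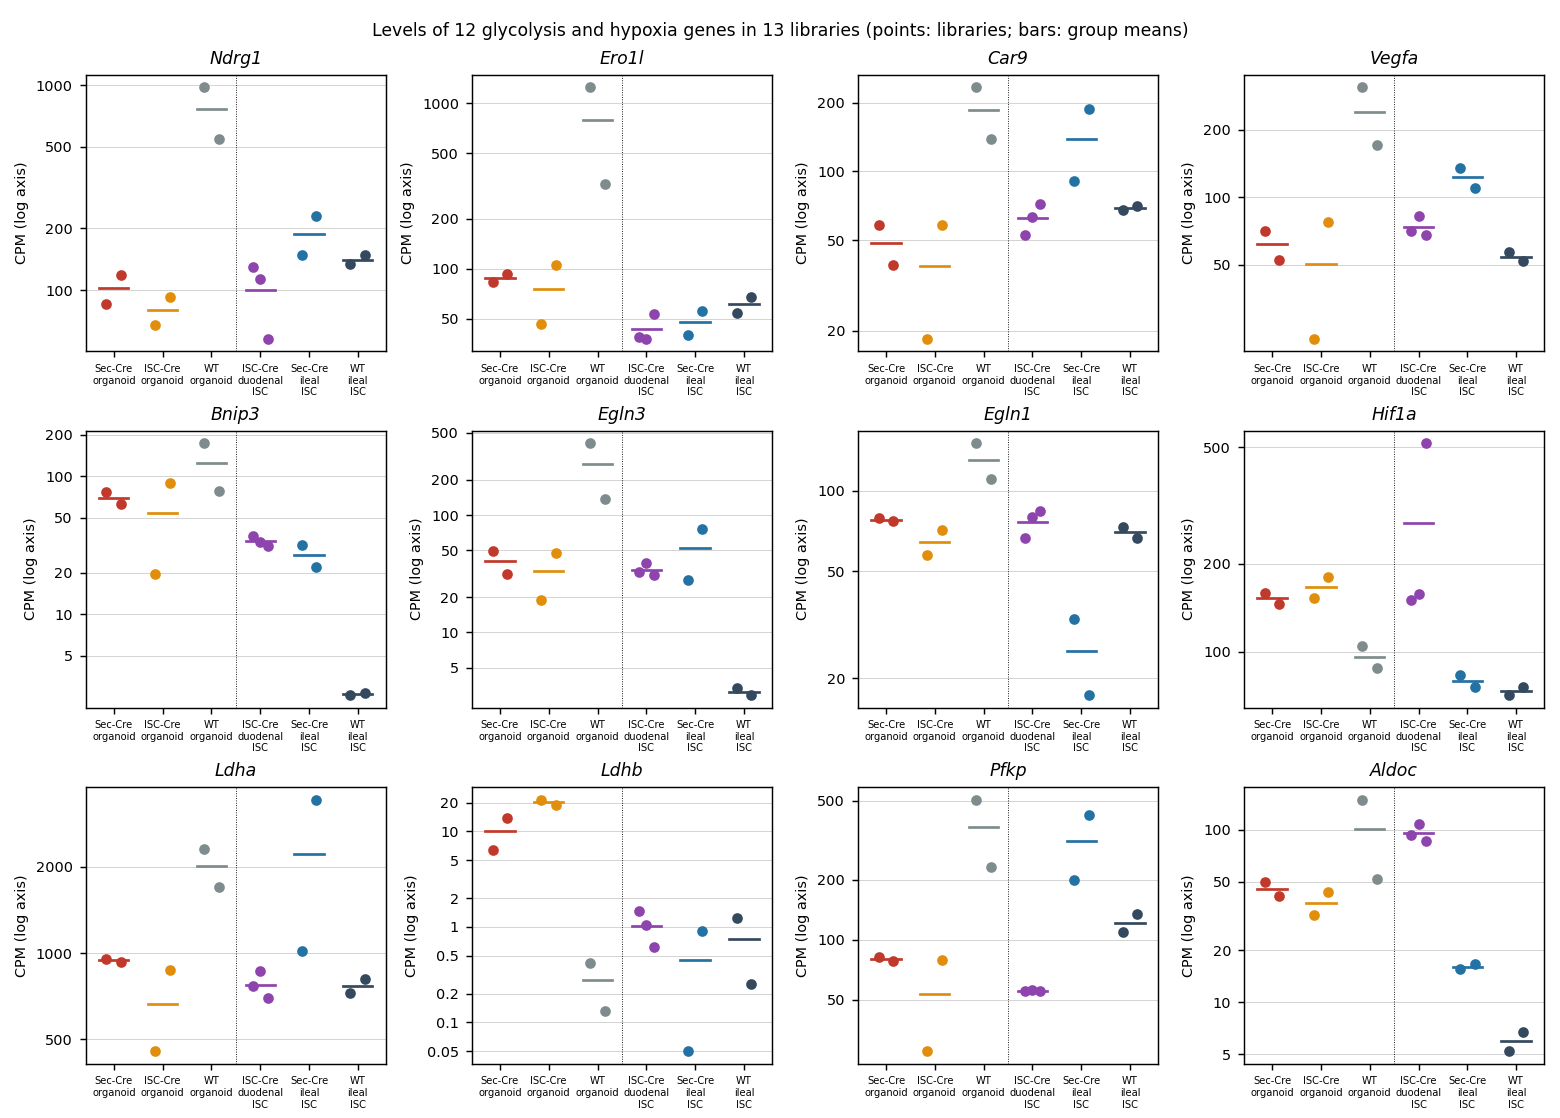
Levels of 12 members in CPM on a log axis (y) in each of the 13 libraries (points) of the 6 groups (x), with group means as bars. Mean levels are highest in WT organoids for Ndrg1, Ero1l, Car9, Vegfa, Bnip3, Egln3 and Egln1 and lowest in WT ileal ISCs for Bnip3, Egln3 and Aldoc, and a value of 0 (Ldhb in Sec-Cre ileal ISC replicate 1) is drawn at 0.05.

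Of the 9 enzymes of the upper steps of glycolysis, 5 fell in Sec-Cre and 7 in ISC-Cre organoids, where 16.3% and 18.5% of all genes tested fell. The fold change of all 9 was negative in both comparisons. Gpi1, which turns glucose 6-phosphate into fructose 6-phosphate, had 538 and 474 CPM in the Sec-Cre pair, 319 and 487 CPM in the ISC-Cre pair and 1795 and 930 CPM in the WT pair. It fell by 1.48 ± 0.32 (adjusted p = 0.0112) in Sec-Cre and by 1.80 ± 0.32 (adjusted p = 0.00444) in ISC-Cre organoids, with no overlap between Apc-null and WT libraries. Pfkp, the platelet-type phosphofructokinase, which commits sugar to glycolysis, had 82.0 and 78.4 CPM, 27.5 and 78.8 CPM, and 506 and 231 CPM in the same groups. It fell by 2.25 ± 0.51 (adjusted p = 0.0133) and by 2.84 ± 0.52 (adjusted p = 0.00491), more than the liver type Pfkl (-0.58, adjusted p = 0.135, and -1.12, adjusted p = 0.0152) in both comparisons. The difference between the isozymes was not tested. The Sec-Cre call of Pfkp was lost without Sec-Cre replicate 2 (0.0507) or WT replicate 1 (0.0510). Tpi1, which interconverts the 3-carbon sugars, had 671 and 644 CPM, 477 and 568 CPM, and 1304 and 977 CPM, and fell by 0.85 ± 0.17 (adjusted p = 0.00792) and 1.16 ± 0.17 (adjusted p = 0.00183). Pfkm and Aldoa also fell in both comparisons, and Aldoc in ISC-Cre organoids. Hk1 and Hk2 passed in neither.

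Of the 5 tested enzymes of the lower steps, Pgk1, which makes the first ATP of the pathway, fell in both comparisons. It had 493 and 479 CPM in the Sec-Cre pair, 178 and 444 CPM in the ISC-Cre pair and 1524 and 885 CPM in the WT pair (log2 fold changes -1.36 ± 0.41, adjusted p = 0.0384, and -2.00 ± 0.42, adjusted p = 0.00842). Gapdh passed in ISC-Cre organoids (-1.10 ± 0.32, adjusted p = 0.0315) and had -0.93 ± 0.32 in Sec-Cre organoids (adjusted p = 0.0592). Pgam1 and Pkm passed in neither. Eno2, the neuronal enolase, was near the detection limit, with 22 reads in both Sec-Cre libraries together, 49 in both ISC-Cre libraries and 3 in both WT libraries. The ISC-Cre to WT ratio of its depth-scaled counts was 13 with a 95% counting interval of 4.21 to 65.4, and the Sec-Cre to WT ratio was 5.49 (1.65 to 28.7). Of the 31-base words of Gapdh, Gpi1, Ldhb, Pgam1, Pkm, Pgk1 and Bnip3, 21.6% (Gpi1) to 57.0% (Bnip3) are shared with other genes, so the levels of these genes are uncertain.

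The regulators split. Pfkfb4, which makes the activator of phosphofructokinase and is known to be hypoxia-induced, had 5.36 and 4.73 CPM in the Sec-Cre pair, 7.56 and 5.90 CPM in the ISC-Cre pair and 36.8 and 30.9 CPM in the WT pair. Its groups lay far apart, and its log2 fold changes of -2.80 ± 0.25 (adjusted p = 0.000251) and -2.36 ± 0.24 (adjusted p = 0.000422) held in all 13 alternative fits of each comparison. Its relative Pfkfb3 had 101 and 69.9 CPM, 112 and 101 CPM, and 110.0 and 76.6 CPM, with overlapping groups and adjusted p of 0.591 and 0.630. Pdk1, the kinase that keeps pyruvate out of mitochondria, fell by 1.37 ± 0.37 in Sec-Cre (adjusted p = 0.0256) and by 1.65 ± 0.37 in ISC-Cre organoids (adjusted p = 0.0113).

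Lactate handling changed in its isozymes. Ldha, the subunit that favours lactate production, had 957 and 928 CPM in the Sec-Cre pair, 455 and 871 CPM in the ISC-Cre pair and 2313 and 1703 CPM in the WT pair. It fell by 1.15 ± 0.29 (adjusted p = 0.0198) and by 1.64 ± 0.29 (adjusted p = 0.00415) on the log2 scale; the Sec-Cre call was lost without Sec-Cre replicate 1 (0.0637), Sec-Cre replicate 2 (0.0720) or WT replicate 1 (0.0784). Ldhb, the subunit that favours lactate use, had 6.42 and 14.0 CPM in the Sec-Cre pair, 21.6 and 18.9 CPM in the ISC-Cre pair and 0.422 and 0.133 CPM in the WT pair. All 4 Apc-null libraries were far above the WT libraries, which held 9 Ldhb reads in all. The Sec-Cre to WT ratio was 42.1 (95% counting interval 22 to 92.6) and the ISC-Cre to WT ratio was 83.2 (43.6 to 182), with edgeR adjusted p of 0.000837 and 0.000343. Even so, Ldhb was a small part of the pair: per kilobase of exon it made up 1.11% and 2.45% of the 2 subunits in Sec-Cre, 7.35% and 3.50% in ISC-Cre and 0.0305% and 0.0131% in WT organoids. The lactate carrier Slc16a1 had 113 and 108 CPM, 70.2 and 92.8 CPM, and 213 and 161 CPM in these groups. Slc16a1 fell by 0.82 ± 0.18 (adjusted p = 0.013) and 1.24 ± 0.18 (adjusted p = 0.00204), its Sec-Cre call being lost without Sec-Cre replicate 1 (0.0595) or 2 (0.0773). Slc16a3, the hypoxia-induced exporter, had 79.4 and 60.5 CPM, 18.3 and 73.2 CPM, and 167 and 97.0 CPM, and missed the threshold (adjusted p = 0.220 and 0.0618).

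No difference between the drivers was detected in organoids. Between Sec-Cre and ISC-Cre organoids, 0 of 33 members were called by edgeR's quasi-likelihood test and 0 by DESeq2, where 0.0422% of all genes tested were called by edgeR. At an unadjusted p under 0.05 there was 1 member, Ldhb, at a log2 fold change of -1.01 ± 0.43. Next came Slc16a1 at 0.42 ± 0.18, and both had an adjusted p of 0.984. Over the alternatives that kept both libraries of each driver, the count at an unadjusted p under 0.05 depended on the setting. It ran from 0 (fit of all 13 libraries) to 8 (voom with sample weights). The fold changes of the 33 members ran from -1.26 (Eno2) to 0.64 (Pgk1) with a median of 0.29, against 0.00 over all genes. By library, 8 members were higher in both Sec-Cre than in both ISC-Cre libraries and 3 were lower, where 22.9% of all genes were higher in this way and 16.7% lower. The ISC-Cre libraries stood apart from each other, replicate 1 being lower than replicate 2 for Pfkp (27.5 and 78.8 CPM), Bnip3 (19.6 and 89.0 CPM), Slc16a3 and Vegfa. The missed threshold does not show that the drivers act alike.

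Isozyme shares, computed per kilobase within each library, showed a change of make-up beside the change of level. Hkdc1, a hexokinase-like protein of the gut, made up 1.401% and 3.81% of hexokinase in Sec-Cre, 1.85% and 1.06% in ISC-Cre and 51.9% and 49.1% in WT organoids. Hk2 made up 67.7% and 71.9%, 56.1% and 69.7%, and 29.6% and 34.9% in the same groups. Pfkp held 21.3% and 20.6% of phosphofructokinase in Sec-Cre, 15.2% and 22.6% in ISC-Cre and 49.9% and 37.4% in WT organoids. With 2 libraries a group no exact test of such shares can pass 0.05, and the enterocyte marker sum moved the same way.

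**Figure D3:**
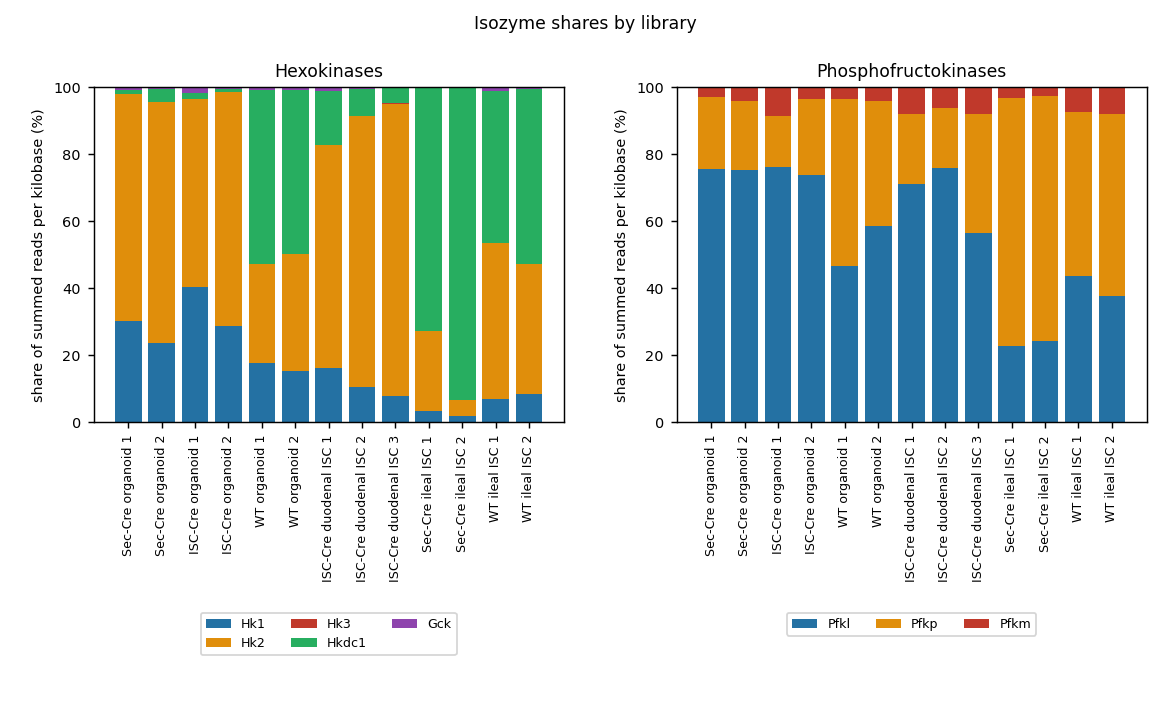
Share of each isozyme (y axis, percent of summed reads per kilobase) among hexokinases and phosphofructokinases in each of the 13 libraries (x axis). Hkdc1 is small in all 4 Apc-null organoid libraries and largest in the Sec-Cre ileal ISC libraries, with 72.9% and 93.0% of hexokinase.

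Other genes of sugar metabolism, 74 in all, were read from 6 further lists. Beside the counts of these lists, 16.3% of all genes fell and 16.7% rose in Sec-Cre organoids. In ISC-Cre organoids 18.5% of all genes fell and 19.3% rose. All 8 genes of gluconeogenesis and fructolysis fell in both organoid comparisons. Khk, the fructose kinase, had 5.02 and 5.76 CPM in the Sec-Cre pair, 6.60 and 4.23 CPM in the ISC-Cre pair and 122 and 83.4 CPM in the WT pair (log2 fold changes -4.30 ± 0.30 and -4.27 ± 0.30). Tkfc, the triose kinase listed in the tables as Dak, fell by 3.43 ± 0.15 in Sec-Cre (edgeR adjusted p = 2.76e-05) and by 3.44 ± 0.15 in ISC-Cre organoids. Pck2, the mitochondrial enzyme that makes phosphoenolpyruvate, fell by 1.44 ± 0.13 and 1.73 ± 0.13. Of 16 other isozymes and accessory genes, 8 fell in each comparison by edgeR's test, among them Hkdc1 and the glucose cotransporter Slc5a1, which had 68.2 and 77.7 CPM in the Sec-Cre pair, 55.7 and 67.1 CPM in the ISC-Cre pair and 553 and 336 CPM in the WT pair.

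Of 13 genes of pyruvate entry to mitochondria, 2 rose and 4 fell in each comparison. The rises were near the share of all genes that rose, 16.7% in Sec-Cre and 19.3% in ISC-Cre organoids, where 16.3% and 18.5% fell. Pdk4, a pyruvate dehydrogenase kinase known to be raised in fasting, had 12.45 and 8.28 CPM in the Sec-Cre pair, 17.1 and 22.2 CPM in the ISC-Cre pair and 0.211 and 0.444 CPM in the WT pair, so it rose where its relatives Pdk1 and Pdk2 fell. Of 7 pentose phosphate genes, G6pdx, which opens that pathway, rose (0.64 ± 0.14 and 0.59 ± 0.14) and 4 fell in each. Of 8 genes of the HIF pathway, Arnt2, a partner of HIF alpha subunits, rose in both comparisons. It had 68.8 and 73.4 CPM in the Sec-Cre pair, 58.0 and 58.3 CPM in the ISC-Cre pair and 4.57 and 17.3 CPM in the WT pair. Cited2, Hif3a and Epas1 fell in both, and Egln2 also in ISC-Cre organoids. Of 19 further hypoxia-induced genes 3 rose (Loxl2, Tgfa, Plod2) and 9 fell in Sec-Cre, and 3 rose and 10 fell in ISC-Cre organoids, with the secreted factors Stc2 and Adm among those that fell.

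In sorted ileal ISCs most of the members that changed were higher in the libraries labelled Sec-Cre Apc-null. Against WT ileal ISCs, 11 of 33 members rose and 1 fell in Sec-Cre ileal ISCs by edgeR's quasi-likelihood test, where 9.62% of 14577 genes tested rose, 6.96% fell and 16.6% did either. The median fold change of the members was 0.66, against 0 over all genes. By library, 16 members were higher in both Sec-Cre than in both WT ileal libraries and 8 were lower, where 29.1% of all genes were higher in this way and 31.1% lower. These counts use scaled CPM. The scaling weighs heavily on Sec-Cre replicate 1, whose 15 glycolytic enzymes summed to 5542 CPM with it and 1953 CPM without it. The count of 11 rests on the WT libraries: 2 rose without WT ileal replicate 1 and 1 rose without WT ileal replicate 2, while 13 rose without Sec-Cre replicate 1, the library with the Paneth cell genes. The 1 fall was lost without either WT library, and 2 members fell without Sec-Cre replicate 2. A fit of only these 4 libraries called 4 members higher and 0 lower. The high enterocyte sum and the low Axin2 of the Sec-Cre ileal libraries, given above, moved with these rises, and their part was not tested.

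Bnip3 rose most firmly. It had 31.8 and 22.03 CPM in Sec-Cre ileal ISCs and 2.60 and 2.68 CPM in WT ileal ISCs, with no overlap, and a log2 fold change of 3.34 ± 0.38 (edgeR adjusted p = 0.00288). The call held in all 13 alternative fits. Reads that map to several places were 11.11% and 9.315% in Sec-Cre ileal ISCs, against 5.203% and 5.761% in WT ileal ISCs. The part of such reads in the rise of Bnip3 was not tested. Egln3 had 27.8 and 76.4 CPM in Sec-Cre and 3.34 and 2.94 CPM in WT ileal ISCs (4.06 ± 0.52, adjusted p = 0.00359, and 0.0524 without WT replicate 2). Egln1 went the other way, with 33.2 and 17.3 CPM in Sec-Cre and 73.5 and 66.5 CPM in WT ileal ISCs (-1.49 ± 0.36, adjusted p = 0.0265). Hif1a itself had 83.0 and 75.8 CPM in Sec-Cre and 71.0 and 75.9 CPM in WT ileal ISCs, which overlap, and a fold change of 0.11 ± 0.56 (adjusted p = 0.922). Vegfa had 135 and 110 CPM in Sec-Cre and 56.9 and 51.7 CPM in WT ileal ISCs and rose by 1.17 ± 0.27 (adjusted p = 0.0230). Without scaling, Vegfa of Sec-Cre replicate 1 would lie below both WT ileal libraries. The other hypoxia-induced genes passed in neither direction: Ndrg1 had a fold change of 0.42 with an adjusted p of 0.513, and Car9 1.01 with 0.0880.

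Among the enzymes, Gapdh had 2024 and 1571 CPM in Sec-Cre and 588 and 494 CPM in WT ileal ISCs (1.73 ± 0.36, adjusted p = 0.0163). Aldoc, the brain-type aldolase, had 15.5 and 16.6 CPM in Sec-Cre and 5.20 and 6.68 CPM in WT ileal ISCs (1.43 ± 0.30, adjusted p = 0.0167). Neither gene's groups overlapped in scaled CPM, but without scaling Aldoc of Sec-Cre replicate 1 would be at the WT level. Tpi1 had 981 and 1567 CPM in Sec-Cre and 439 and 444 CPM in WT ileal ISCs (1.53 ± 0.37, adjusted p = 0.0270). Aldoa had 878 and 1154 CPM in Sec-Cre and 406 and 463 CPM in WT ileal ISCs (1.224 ± 0.33, adjusted p = 0.0387). Pfkp had 200.2 and 423 CPM in Sec-Cre and 109 and 135 CPM in WT ileal ISCs (1.35 ± 0.37, adjusted p = 0.0390). None of these 3 genes overlapped between the groups in scaled CPM. Without scaling, Sec-Cre replicate 1 would lie below both WT ileal libraries for all 3. Pfkfb4 had 60.1 and 103 CPM in Sec-Cre and 18.8 and 22.6 CPM in WT ileal ISCs (1.97 ± 0.51, adjusted p = 0.0331). Without scaling, Pfkfb4 of Sec-Cre replicate 1 would lie between the WT ileal libraries. Pfkfb3 had 95.5 and 40.2 CPM in Sec-Cre and 7.25 and 24.4 CPM in WT ileal ISCs (2.09 ± 0.61, adjusted p = 0.0478). The lactate exporter Slc16a3 had 25.9 and 47.9 CPM in Sec-Cre and 1.55 and 7.65 CPM in WT ileal ISCs (2.99 ± 0.75, adjusted p = 0.0304). With the exception of Bnip3 and Egln3, every call in this comparison was lost without WT replicate 1, with adjusted p of 0.121 to 0.242 there, and every call but that of Bnip3 was lost without WT replicate 2, with adjusted p of 0.0505 to 0.206. Leaving out Sec-Cre replicate 1 took the call of Pfkfb3 (0.181), and leaving out Sec-Cre replicate 2 took those of Slc16a3 (0.0758), Pfkfb4 (0.0904) and Pfkp (0.0892).

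In scaled CPM, Ldha had 1014 and 3433 in Sec-Cre and 726 and 810.2 in WT ileal ISCs. Both Sec-Cre libraries were higher, but they lay far apart, and the fold change of 1.53 ± 0.55 did not pass (adjusted p = 0.0907, and 0.00735 without Sec-Cre replicate 1). Pkm (1.27 ± 0.47, adjusted p = 0.0954), Hk2 (-1.15 ± 0.48, adjusted p = 0.132) and Slc2a1 (-0.05 ± 0.40, adjusted p = 0.951) did not pass either. Ldhb had 0 and 0.903 CPM in Sec-Cre and 1.24 and 0.253 CPM in WT ileal ISCs, so its high level in Apc-null organoids was not seen in these cells at this depth. Among the other lists, 4 of 16 other isozymes rose, among them the sugar transporters Slc2a5 (4.96 ± 0.54, adjusted p = 0.00281) and Slc5a1 (3.40 ± 0.40, adjusted p = 0.00309), genes that mature enterocytes express. Of 8 genes of gluconeogenesis and fructolysis 4 rose, and of 13 of pyruvate entry 5 rose, led by Pdk2 and Mpc1. Rpia fell among 7 pentose phosphate genes, Hif1an fell among 8 genes of the HIF pathway, and of 19 further hypoxia-induced genes 2 rose (Higd1a, Fam162a) and 2 fell (Car12, Stc2). Of all genes tested here 9.62% rose and 6.96% fell, and the counts of these last 3 lists were not far from that.

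Duodenal ISC-Cre ISCs were compared with the same WT ileal libraries, so region, day and protocol differ together with genotype. There 6 of 33 members rose and 3 fell, where 10.2% of genes rose, 8.84% fell and 19.1% did either. By library, 14 members were higher in all 3 duodenal libraries than in both WT ileal ones and 7 were lower, where 32.2% of all genes were higher in this way and 29.1% lower. Aldoc had 92.9, 108 and 86.1 CPM in duodenal ISCs, against 5.20 and 6.68 CPM in WT ileal ISCs (4.01 ± 0.32, edgeR adjusted p = 0.000375). Bnip3 had 37.2, 33.2 and 31.3 CPM, against 2.60 and 2.68 CPM (3.68 ± 0.37, adjusted p = 0.000656), and Egln3 had 33.0, 39.0 and 30.6 CPM, against 3.34 and 2.94 CPM (3.45 ± 0.49, adjusted p = 0.00236). Slc16a3 had 77.5, 87.2 and 35.0 CPM in duodenal ISCs, against 1.55 and 7.65 CPM in WT ileal ISCs (3.84 ± 0.75, adjusted p = 0.00970). These 4 calls and that of Pgk1 held in every alternative fit. Pgk1 fell, with 76.7, 84.9 and 57.7 CPM in duodenal and 261 and 297 CPM in WT ileal ISCs (-1.93 ± 0.27, adjusted p = 0.00246). Of the 31-base words of Pgk1, 54.7% are shared with other genes, and 37.1% of those of Pgam1, which also fell (below). For Bnip3, which rose, the share is 57.0%. Reads that map to several places were 12.87%, 14.6% and 17.01% in the duodenal libraries, against 5.203% and 5.761% in WT ileal ISCs. The part of such reads in the falls of Pgk1 and Pgam1 and in the rise of Bnip3 was not tested.

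Hif1a had 150, 158 and 516 CPM in duodenal ISCs, against 71.0 and 75.9 CPM in WT ileal ISCs. All 3 duodenal libraries were higher, and replicate 3 stood far above the others. Its fold change was 1.90 ± 0.55 (adjusted p = 0.0428) and was 1.08 without duodenal replicate 3 (adjusted p = 0.0180); without WT replicate 1 or 2 the call was lost (0.183 and 0.205). Pgam1 had 30.1, 39.7 and 18.7 CPM, against 85.3 and 87.4 CPM (-1.54 ± 0.40, adjusted p = 0.0294), and Pfkp had 55.2, 56.0 and 55.4 CPM, against 109 and 135 CPM (-1.14 ± 0.33, adjusted p = 0.0426). Neither gene overlapped between groups. The call of Pfkp was lost without any 1 of the 5 libraries (0.0869 to 0.291), and that of Pgam1 without either WT library or duodenal replicate 1 or 3 (0.0646 to 0.153). So 1 member was lower without either WT library or duodenal replicate 1 or 3, and 2 were lower without duodenal replicate 2. Eno2 had 117 reads in the 3 duodenal libraries and 0 in the WT ileal libraries, at least 16.5-fold higher against a floor of 3 counts over the group; its call was lost without either WT library or duodenal replicate 1. Slc2a1 (0.92 ± 0.37, adjusted p = 0.124), Hk2 (0.81 ± 0.44, adjusted p = 0.232), Pkm (1.14 ± 0.44, adjusted p = 0.103), Egln1 (0.13 ± 0.32, adjusted p = 0.802), Ldha (0.02 ± 0.49, adjusted p = 0.984) and Ldhb (0.50, adjusted p = 0.791) did not pass. Of the other lists, Arnt2 had 62.1, 48.4 and 86.2 CPM in duodenal ISCs, against 3.34 and 2.08 CPM in WT ileal ISCs. In the same comparison 6 of 19 further hypoxia-induced genes rose, where 10.2% of all genes did. Goblet cell markers summed to 508 to 926 CPM in duodenal ISCs, against 12868 to 14894 CPM in WT ileal ISCs. The endothelial list of 4 genes summed to 71.5 to 146 CPM, against 0.557 to 1.11 CPM, most of it Cdh5 (63.4 to 140.2 CPM), with Kdr at or near 0. The stromal list summed to 312 to 602 CPM, against 14.3 to 20.3 CPM, most of it Vim (305 to 590.2 CPM). The part of these markers in the results was not tested.

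Set against Sec-Cre ileal ISCs, duodenal ISCs had 6 members higher and 9 lower, where 21.0% of genes were higher, 19.8% lower and 40.8% either, so the members' share of 15 in 33 was near that of all genes. Without Sec-Cre ileal replicate 1 the counts were 4 and 10. By library, 8 members were higher in all duodenal than in both Sec-Cre ileal libraries and 13 were lower, where 34.2% of all genes were higher in this way and 28.3% lower. Pfkp (-2.48 ± 0.33, adjusted p = 0.000869), Pfkfb4 (-3.29 ± 0.46, adjusted p = 0.00108), Pgam1 (-2.20 ± 0.40, adjusted p = 0.00353), Gapdh (-1.57 ± 0.32, adjusted p = 0.00568), Pgk1 (-1.23 ± 0.27, adjusted p = 0.00817) and Tpi1 (-1.34 ± 0.32, adjusted p = 0.0120) led the lower genes. Pfkfb4 had 11.1, 9.58 and 4.02 CPM in duodenal ISCs, against 60.1 and 103 CPM in Sec-Cre ileal ISCs. Gapdh had 543, 593 and 679 CPM in duodenal ISCs, against 2024 and 1571 CPM. Pgam1, a mutase of the lower steps, had its 3 duodenal values below both Sec-Cre ileal values of 86.4 and 186 in scaled CPM. Aldoc (2.58 ± 0.29, adjusted p = 0.000459), Egln1 (1.62 ± 0.34, adjusted p = 0.00632), Hk2 (1.96 ± 0.47, adjusted p = 0.0110) and Eno2 led the higher genes. Egln1 had 66.7, 79.7 and 83.8 CPM, and Hk2 had 111, 186 and 316 CPM in duodenal ISCs, against 67.0 and 38.6 CPM for Hk2 in Sec-Cre ileal ISCs. Neither gene's groups overlapped. The Hk2 call was lost without Sec-Cre replicate 2 (0.0658), and that of Hif1a (1.78 ± 0.54, adjusted p = 0.0293) without Sec-Cre replicate 1 or 2 (0.0861 and 0.121). Ldha was lower by 1.51 ± 0.49 (adjusted p = 0.0367), a call lost without Sec-Cre replicate 2 (0.328) or any duodenal library (0.0814 to 0.0939). All 8 genes of gluconeogenesis and fructolysis were lower in duodenal ISCs.

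WT organoids stood well above WT ileal ISCs. Of 33 members, 19 were higher and 0 lower by edgeR's quasi-likelihood test (0 lower by DESeq2 as well, with 25 members at an unadjusted p under 0.05 by edgeR), where 1.98% of 15208 genes were higher, 1.89% lower and 3.87% either. By library, 29 of 33 members were higher in both WT organoid libraries than in both WT ileal ISC libraries and 0 were lower, where 27.2% of all genes were higher in this way and 26.1% lower. The median fold change of the members was 1.95, against 0 over all genes. Egln3 was 6.44 ± 0.71 higher on the log2 scale (adjusted p = 0.000630), Bnip3 5.56 ± 0.67 (adjusted p = 0.000956), Slc16a3 4.82 ± 0.83 (adjusted p = 0.00730), Aldoc 4.08 ± 0.44 (adjusted p = 0.000552) and Ero1l 3.69 ± 0.57 (adjusted p = 0.00414), and these 5 calls held in every alternative fit. Ndrg1 (2.44 ± 0.42), Aldoa (2.32 ± 0.37), Pkm (2.28 ± 0.42), Gapdh (2.27 ± 0.37) and Gpi1 (1.84 ± 0.33) were among the others. Aldoa had 2919 and 1416 CPM in WT organoids, against 406 and 463 CPM in WT ileal ISCs, and Aldoc had 150 and 52.0 CPM, against 5.20 and 6.68 CPM. Neither overlapped. For Ero1l the WT ileal libraries held 53.8 and 68.0 CPM, for Ndrg1 133 and 148 CPM, for Gpi1 381 and 380.5 CPM and for Pkm 340.4 and 426 CPM. Hif1a (0.39, adjusted p = 0.768), Hk2 (0.16, adjusted p = 0.927), Slc2a1 (1.30 ± 0.35, adjusted p = 0.0586), Egln1 (0.90, adjusted p = 0.129), Ldha (1.39 ± 0.49, adjusted p = 0.162) and Ldhb (-1.47, adjusted p = 0.533) did not pass. The count of 19 was 5 without WT organoid replicate 1 and 6 without either WT ileal library. Culture, sorting, cell make-up and the labelled genotype differ together between these groups.

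Between Sec-Cre organoids and Sec-Cre ileal ISCs, 10 members were higher and 4 lower in organoids by the same test, where 26.2% of genes were higher, 22.4% lower and 48.6% either. The share of members called was thus not above that of all genes, and the genes named below do not set the list apart. By library, 17 were higher and 10 lower without overlap, where 42.2% of all genes were higher in this way and 31.7% lower. Pfkfb4 was lower by 4.01 ± 0.47 (adjusted p = 4e-05) and Pfkp by 1.96 ± 0.49 (adjusted p = 0.00615), while Egln1 (1.66 ± 0.30, adjusted p = 0.000865), Ldhb (3.98 ± 0.93, adjusted p = 0.00417), Slc2a1 (1.37 ± 0.35, adjusted p = 0.00663) and Hk1 (1.56 ± 0.40, adjusted p = 0.00662) were higher. Slc2a1 had 24.6 and 58.2 CPM in Sec-Cre ileal ISCs, and Hk1, the hexokinase of most cells, had 48.6 and 30.4 CPM in Sec-Cre organoids, against 9.60 and 16.6 CPM in Sec-Cre ileal ISCs. Pgk1 had 493 and 479 CPM in Sec-Cre organoids, against 151 and 193 CPM in Sec-Cre ileal ISCs. Pfkl had 248 and 243 CPM, against 52.4 and 118 CPM, and Aldoc 49.8 and 41.4 CPM, against 15.5 and 16.6 CPM. These 3 genes were called higher, and Tpi1 was called lower (-0.95). Without Sec-Cre organoid replicate 1, 5 members were higher, without replicate 2 there were 6 higher and 2 lower, without Sec-Cre ileal replicate 1 there were 6 higher and 6 lower, and without Sec-Cre ileal replicate 2 there were 2 lower.

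**Figure D4:**
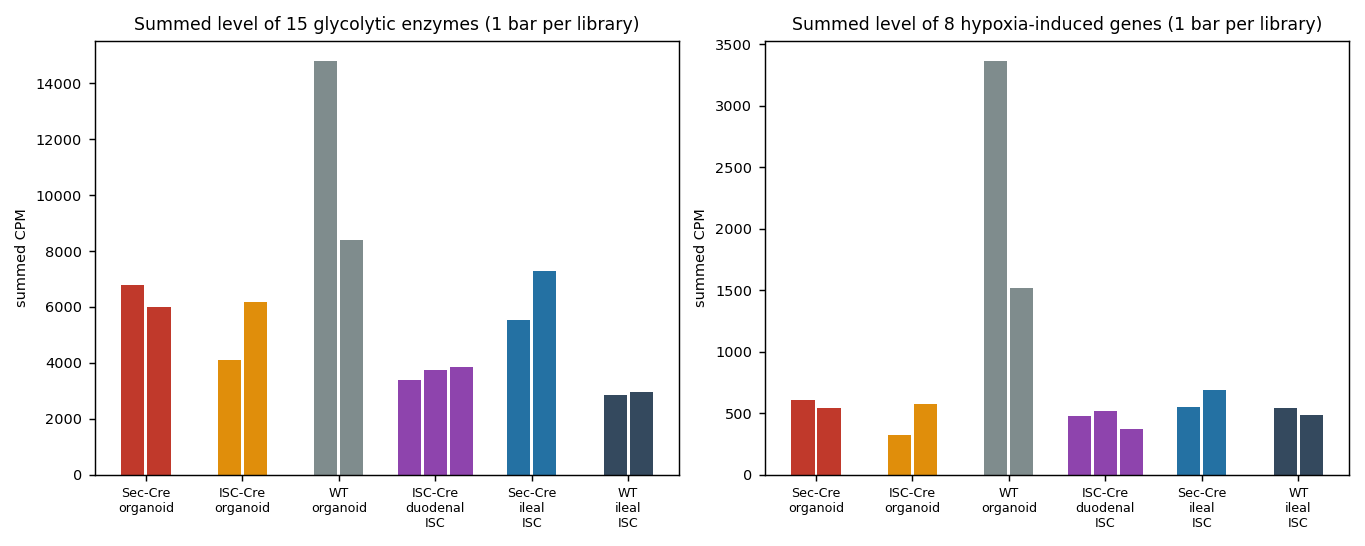
Summed CPM (y axis) of the 15 glycolytic enzymes (left) and the 8 hypoxia-induced genes (right), 1 bar per library, in the 6 groups (x axis). WT organoids are highest in both panels, at 14786 and 8383 CPM for the enzymes and 3361 and 1519 CPM for the hypoxia-induced genes. The enzymes include Eno1, whose level is not read here.

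The 15 enzymes include Eno1, whose level is not read here. It added at most 0.985 CPM to the sum of a library, and its copy Eno1b is not in the sum. Summed over the 15 enzymes, Sec-Cre organoids held 6793 and 5986 CPM and ISC-Cre organoids 4118 and 6159 CPM, against 14786 and 8383 CPM in WT organoids. All 4 Apc-null organoid libraries lay below both WT organoid libraries. Duodenal ISCs held 3392 to 3853 CPM and Sec-Cre ileal ISCs 5542 and 7268 CPM, against 2846 and 2967 CPM in WT ileal ISCs. The value of Sec-Cre ileal replicate 1 depends on the scaling: without it the sum is 1953 CPM, below WT ileal ISCs (2951 and 3148 CPM without scaling). The 8 Paneth cell genes held 28.0% of the gene counts of this library, and their part in the scaling was not tested. The 8 hypoxia-induced genes summed to 604 and 542 CPM in the Sec-Cre pair of organoid libraries and to 323 and 576 CPM in the ISC-Cre pair, against 3361 and 1519 CPM in WT organoids. In ISCs the sums were 369 to 516 CPM (duodenal) and 553.5 and 686 CPM (Sec-Cre ileal), against 538 and 482 CPM in WT ileal ISCs. The Sec-Cre ileal values lay just above the WT ileal ones, but without scaling replicate 1 had 195 CPM, far below the WT ileal sums of 558 and 512 CPM. The duodenal and WT ranges overlapped. Per kilobase, Gapdh had the highest level of the members in WT organoids (1410 ± 655 CPM per kilobase, SD, n = 2), then Ldha (766 ± 164) and Aldoa (716 ± 351), neighbours that differ by less than their spread.

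The difference between Sec-Cre Apc-null and WT was not the same in organoids and ileal ISCs for 18 of 33 members. This was tested as an interaction in the fit of all 13 libraries, as the log2 change in organoids minus that in ileal ISCs. Of the 33, 17 had a more negative effect in organoids and 1, Ldhb, a more positive one (5.45 ± 1.35, adjusted p = 0.0115), where 26.4% of all genes differed in either direction, 13.4% being more positive. The median was -2.07, against 0.16 over all genes. Among the negative differences Egln3 had the largest, at -6.83 ± 0.87 (edgeR adjusted p = 0.000198), then Pfkfb4 at -4.72 ± 0.62 (adjusted p = 0.000246), Bnip3 at -4.17 ± 0.81 (adjusted p = 0.00302) and Slc16a3 at -3.92 ± 1.04 (adjusted p = 0.0156). The hypoxia-induced genes supplied 6 of the 17 (Ndrg1, Bnip3, Vegfa, Car9, Ero1l and Ankrd37) and the upper enzymes 5 (Tpi1, Aldoa, Pfkp, Aldoc and Gpi1). Slc2a1, Hk1, Hk2, Pkm, Hif1a and Egln1 were not among them.

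Pfkp, Pfkfb4, Aldoa, Tpi1, Vegfa and Egln3 fell in Sec-Cre organoids and rose in Sec-Cre ileal ISCs. Egln1 fell in both. All these ileal calls were lost without WT ileal replicate 2, and all but that of Egln3 without WT ileal replicate 1. Organoid calls were lost in some fits too, among them those of Pfkp, Vegfa and Egln1. Without scaling, Sec-Cre ileal replicate 1 would lie below both WT ileal libraries for Pfkp, Aldoa, Tpi1 and Vegfa, and between them for Pfkfb4. The count of 17 ran from 12 to 17 when each library was left out in turn. It was 12 without WT organoid replicate 1 or WT ileal replicate 1 and 17 without Sec-Cre ileal replicate 1, and the call of Ldhb was lost without WT organoid replicate 2 (adjusted p = 0.0501) or WT ileal replicate 1 (0.0900), while 2 members were more positive without Sec-Cre ileal replicate 1. The calls of Ndrg1 (-3.32 ± 0.57, adjusted p = 0.00142), Tpi1 (-2.32 ± 0.41, adjusted p = 0.00161), Aldoa, Pfkp, Gapdh, Vegfa, Gpi1, Car9, Egln3 and Pfkfb4 held in every alternative fit. WT levels enter this contrast from both sides: WT organoids were above, and WT ileal ISCs below, their Sec-Cre counterparts for Egln3, with 408 and 138 CPM in WT organoids and 3.34 and 2.94 CPM in WT ileal ISCs. The enterocyte sum moved in the same way, being lower in Sec-Cre than WT organoids and higher in Sec-Cre than WT ileal ISCs, and its part was not tested.

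**Figure D5:**
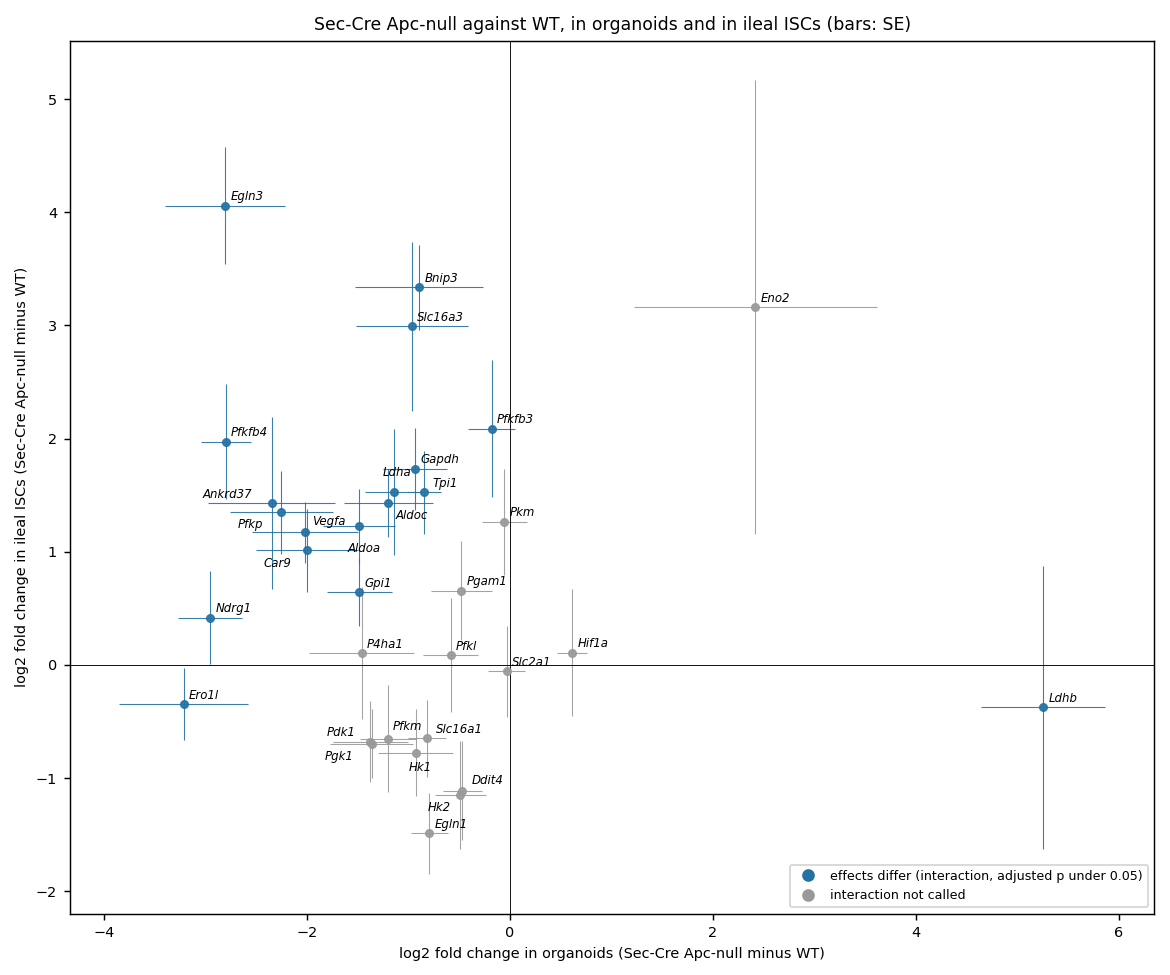
Log2 fold change of Sec-Cre Apc-null against WT in organoids (x axis) and in ileal ISCs (y axis) for the 33 tested members, with SE bars. Blue points have an interaction with an adjusted p under 0.05 and most lie left of 0 and above 0, with Egln3 at -2.81 and 4.06 and Ldhb alone at the right among the blue points. Eno2, at the upper right, rests on few reads.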

How the data were processed

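Gene counts per library, as deposited by the authors, give reads per gene for both strands together, and for each strand. Per the submitters' processing notes, the builds and tools named are mm10, STAR (no version given) and DESeq2 1.22.2. Per the labels' protocols the kit was non-directional, but 98.5% to 98.9% of stranded counts fell on the second strand in the duodenal libraries and 48.4% to 51.1% in the others, so the counts of both strands together were used. Summary lines that name no gene were left out; unmapped reads were 57.0% and 35.8% in Sec-Cre ileal ISCs and at most 13.9% elsewhere.

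Groups came from the sample labels. The extraction text names duodenum for every sample, so region rests on the sample labels, and for organoids the labels leave open whether the 10 days count from tamoxifen or from plating. Nothing says that replicates came from separate animals, so p-values measure only the spread between these libraries. All tests used edgeR 4.0.16 (quasi-likelihood F-test, TMM scaling, filterByExpr with a minimum count of 10) with Benjamini-Hochberg adjustment over all genes of a fit and a threshold of 0.05. There were 3 fits: 6 organoid libraries, 7 ISC libraries, and all 13 libraries for comparisons across materials and for the interaction. Levels are CPM scaled by TMM over all 13 libraries, and TMM scaling assumes that most genes do not differ. Per-kilobase values used exon lengths of the mouse annotation of build GRCm38. Intervals and floors (95%, 3 counts) cover counting error only. The scripts were tested on simulated data. DESeq2 1.42.0, limma 3.58.1 (voom with sample weights), other scalings, no filter, other sets of libraries, a replicate block and leaving out each library were alternatives.

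The members and the gene lists were chosen with earlier results of these data known. Named members are, per comparison, at most 10 called ones with the smallest adjusted p, plus Hif1a, Egln1, Egln3, Slc2a1, Hk2, Pkm, Ldha and Ldhb. Of each further list at most 3 called genes are named by the same order, and other genes named from short counts were chosen after their values were seen. The values of 1 gene of the further lists are not reported here.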

Additional observations from a re-analysis of the deposited data

Results flagged for a closer look

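For 18 members the effect of the Sec-Cre Apc-null label differed between organoids and ileal ISCs by the interaction test (edgeR quasi-likelihood, adjusted p under 0.05 over all genes). The list had 33 tested members, and of all 15208 genes tested 26.4% differed in either direction. The low Axin2 and the high enterocyte sum of the Sec-Cre ileal libraries, given in the Results, apply here too. So does the weight of the scaling on Sec-Cre ileal replicate 1. The part of these markers in the differences was not tested. Values are the log2 change in organoids minus the log2 change in ileal ISCs, with 2 libraries in each of the 4 groups. Among the oxygen-sensing and hypoxia-induced genes, the difference was -6.825 for Egln3, -4.171 for Bnip3, -3.758 for Ankrd37, -3.321 for Ndrg1, -3.137 for Vegfa, -2.965 for Car9 and -2.816 for Ero1l. Among the enzymes it was -3.556 for Pfkp, -2.658 for Aldoa, -2.61 for Gapdh, -2.579 for Aldoc, -2.324 for Tpi1 and -2.074 for Gpi1. The regulators gave -4.725 (Pfkfb4) and -2.211 (Pfkfb3). In lactate handling, Slc16a3 had -3.918, Ldha had -2.626 and Ldhb had 5.453, the 1 positive difference. No group has 4 or more libraries, so no library was tested as standing apart within its group.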

How the results depend on the processing

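With 2 or 3 libraries a group, 1 library often decides a call. Of the called members, those called in every alternative numbered 6 of 19 (Sec-Cre organoids), 13 of 25 (ISC-Cre organoids), 1 of 12 (Sec-Cre ileal ISCs), 5 of 9 (duodenal against WT ileal ISCs), 8 of 15 (duodenal against Sec-Cre ileal ISCs), 5 of 19 (WT organoids against WT ileal ISCs), 3 of 14 (Sec-Cre organoids against Sec-Cre ileal ISCs) and 10 of 18 (interaction). No called member changed direction in an alternative that was run. Under upper-quartile scaling the median log2 fold change of all genes was 0.116 (Sec-Cre) and 0.119 (ISC-Cre) in organoids against WT, beside 0.05 and 0.03 under TMM. Depth limits Eno2, Ldhb and Slc2a3, which had few reads in several groups.

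A fit of all 13 libraries called 1 member higher and 11 lower among 2477 genes in Sec-Cre organoids, 1 higher among 2997 genes in ISC-Cre organoids, 1 gene between the drivers in organoids, 2 members lower among 4291 genes in Sec-Cre ileal ISCs and 4426 genes in duodenal ISCs against WT. DESeq2 called 72 genes between the drivers in organoids, 3790 in Sec-Cre ileal ISCs, 1194 between WT organoids and WT ileal ISCs, and 7 members lower in Sec-Cre organoids than in Sec-Cre ileal ISCs. Without a filter on low counts 24 genes were called between the drivers, and 7 members were lower in Sec-Cre organoids than in Sec-Cre ileal ISCs. With voom and sample weights 12 genes were called between the drivers, 14 members were higher and 6 lower among 7375 genes in duodenal against WT ileal ISCs, 3 members were higher in duodenal than in Sec-Cre ileal ISCs, 1409 genes differed between WT organoids and WT ileal ISCs, 6 members were higher in Sec-Cre organoids than in Sec-Cre ileal ISCs, and 0 had a more positive effect in organoids by interaction (1 by edgeR). A fit of only the compared groups called 11 genes between the drivers, and 4 members higher and 0 lower among 1336 genes in Sec-Cre ileal ISCs (edgeR over 7 libraries called 11 and 1). The cause of these moves was not tested.

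Same-numbered libraries of different groups did not deviate together (correlations of -0.078 to 0.067), so the numbers were not taken as pairs. With the replicate block 1671 genes were called in duodenal against WT ileal ISCs, 304 between WT organoids and WT ileal ISCs, and 1 member was lower in Sec-Cre organoids than in Sec-Cre ileal ISCs.

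With each library left out in turn, Sec-Cre organoids had 1 to 2 members higher, 7 to 23 lower and 2608 to 5101 genes called, and ISC-Cre organoids had 2 to 3 higher, 14 to 26 lower and 3194 to 5542 genes. Between the drivers 0 to 5 genes were called. Sec-Cre ileal ISCs had 1 to 13 members higher, 0 to 2 lower and 153 to 3183 genes called. Duodenal against WT ileal ISCs had 4 to 6 higher, 1 to 2 lower and 937 to 2226 genes, and against Sec-Cre ileal ISCs 4 to 6 higher, 6 to 10 lower and 4091 to 5909 genes. WT organoids against WT ileal ISCs had 5 to 18 higher and 162 to 355 genes. Sec-Cre organoids against Sec-Cre ileal ISCs had 5 to 9 higher, 2 to 6 lower and 5059 to 7420 genes. The interaction had 0 to 2 members more positive, 12 to 17 more negative and 2513 to 4888 genes.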
